A study of Mus musculus with 13 samples.

Results

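The loci described here are 9 genomic windows named for genes of the extracellular matrix and of contractile stress fibres: Col1a1, Col1a2, Col3a1, Fn1, Postn, Thbs1, Ctgf, Cyr61 and Acta2. Each window was set by its position on the mouse build mm9, and every peak of H3K27ac that touched it was counted. In 12 peak lists the windows held 1166 of 1117291 peaks. Merging overlapping peaks of all libraries gave 227 regions in the windows, of 211369 in the genome.

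H3K27ac is acetylation of histone H3 at lysine 27, a mark of active promoters and enhancers, measured here by chromatin immunoprecipitation and sequencing. The cells were C2C12, a mouse myoblast line that fuses into myotubes when serum is withdrawn. Wild-type cells were taken 24 h before the change to medium with 2% horse serum (called -24 h), at the change (0 h), and after 6, 12, 24, 48 and 72 h in it. At 48 h there were also 5 lines edited with CRISPR/Cas9: a Myod1 knockout, deletions of the hotspots called H1 and H3, a line without H2 and H3 (H23) and a line without H3 and H4 (H34). The double deletions were made by removing H3 from lines that already lacked H2 or H4, and the labels do not say whether a line is 1 clone. All cells were C2C12, and every edited line had been 48 h in the same low-serum medium as its wild-type reference. The CRISPR control library was not analysed here, so wild type stood in for it.

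Fibroblast-like cells build their matrix from fibrillar collagens, which fibronectin and other glycoproteins help to assemble, while smooth muscle actin in stress fibres lets them pull on it. Several of these genes answer to TGF-beta through SMAD proteins, to YAP and TAZ through TEAD factors and to MRTF through SRF, which binds CArG boxes. Growing myoblasts also make matrix and actin fibres, and myogenic differentiation replaces much of this programme with sarcomeric proteins.

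Each condition had 1 library, so no test between conditions was possible and every value describes a single library. Read depth was unknown. The lists held 55585 to 137960 peaks and covered 18.3 to 81.5 Mb, so bases covered in a window were also given as a list share, the covered bases in the window per Mb of bases covered in the whole list. A window was called higher or lower when its list share differed at least 2-fold and at least 1000 bases were covered in either library. The same call over all 50 kb tiles of the genome gave the background. The 48 h lists have another file format than the rest of the time course, and the 48 h wild-type list had the widest peaks, 420 bp at the median, while the other times ran from 203 to 280 bp. Format and time cannot be told apart for that library, and peaks from bulk chromatin do not separate fewer marked cells from less mark per cell.

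Promoter sequences are shown for 3 genes whose windows carry the contrasts below: Acta2 was lower in every line without H3, Cyr61 varied least over the time course, and Col1a2 had few covered bases at 72 h and without Myod1. The sequences are the 250 bases before the start of the RefSeq gene on GRCm38.p6, 5′ to 3′ on the gene's strand. RefSeq promoters were matched for 5 of the 9 genes, Col1a2, Col3a1, Postn, Cyr61 and Acta2. Capitals mark TEAD motifs (CATTCC on either strand), TATA boxes (TATAAA) and CArG boxes with 1 changed letter.
Acta2, chr19:34255374-34255623, minus strand: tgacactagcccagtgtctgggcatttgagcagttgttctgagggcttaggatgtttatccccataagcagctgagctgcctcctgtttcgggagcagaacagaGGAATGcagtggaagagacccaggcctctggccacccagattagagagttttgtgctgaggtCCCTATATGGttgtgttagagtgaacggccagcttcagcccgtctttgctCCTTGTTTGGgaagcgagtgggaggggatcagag
Cyr61 (RefSeq symbol Ccn1), chr3:145649986-145650235, minus strand: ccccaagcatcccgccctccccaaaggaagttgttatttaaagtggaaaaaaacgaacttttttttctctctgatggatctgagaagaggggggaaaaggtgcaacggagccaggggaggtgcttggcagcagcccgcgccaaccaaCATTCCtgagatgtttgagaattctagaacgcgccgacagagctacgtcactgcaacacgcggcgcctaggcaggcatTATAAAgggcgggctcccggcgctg
Col1a2, chr6:4505368-4505617, plus strand: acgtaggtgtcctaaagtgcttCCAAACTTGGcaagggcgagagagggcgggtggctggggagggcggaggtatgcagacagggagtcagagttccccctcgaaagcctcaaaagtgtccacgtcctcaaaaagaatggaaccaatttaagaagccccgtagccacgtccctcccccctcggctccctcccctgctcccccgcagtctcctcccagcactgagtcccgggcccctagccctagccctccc

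The Acta2 promoter held a TEAD motif read on the other strand, GGAATG, 146 to 141 bases before the start. It also held 2 CArG boxes with 1 changed letter, CCCTATATGG at 84 to 75 bases and CCTTGTTTGG at 34 to 25 bases before the start. The Cyr61 promoter held the TEAD motif at 103 to 98 bases and a TATA box at 25 to 20 bases before the start. Over the 6 promoters of the 5 genes, the TEAD motif was found in 3 against 12.6% of 32851 mouse promoters of the same length, and the TATA box in 3 against 12.4%. A CArG box with 1 changed letter, a search added after the data were seen, was found in 2 of the 6 against 7.24% of all promoters, and an exact CArG box in 0 against 1.47%. The AP-1 motif TGANTCA (6.75% of all promoters) and the SMAD motif GTCTAGAC (0.167%) were found in 0 of the 6. The E box CANNTG was found in 2 against 66.2%, and the MyoD-type E box CAGCTG, which every E box search also counts, in 1, that of Acta2, against 13.0%. All motifs were searched on both strands, and a match is a description of letters only. No mm9 gene annotation was used, so it is not stated whether a peak lies on a promoter, an exon or an intron.

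Most windows were densely marked. In each library 8 or 9 of the 9 had a larger percentage of their bases covered than the median 50 kb tile that held a peak. Cyr61, which encodes a matricellular protein secreted by stretched and growing cells, lay at percentiles 94.3 to 97.6 among those tiles over the 12 libraries. Col1a1, the main chain of type I collagen, lay at percentiles 84.2 to 97.7, and Acta2, the gene of smooth muscle actin, at 80.2 to 97.2. Thbs1, the gene of thrombospondin 1, lay at percentiles 76.2 to 97.5, Col3a1 at 68.7 to 97.5 and Col1a2 at 68.6 to 89.6. Ctgf, the gene of connective tissue growth factor, lay at percentiles 58.3 to 96.3 and Fn1, the gene of fibronectin, at 53.7 to 88.0. Postn, the gene of the matricellular protein periostin, was the least covered, at percentiles 21.6 to 64.3.

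Each window had 1 widest region, and in all 9 windows this region held a peak in all 12 libraries. Choosing the widest after merging all libraries favours regions with peaks in many of them, and no other loci were compared. On mm9 the widest were those of Cyr61 at chr3:145310395-145318407 (8013 bp), Fn1 at chr1:71694141-71701322 (7182 bp) and Acta2 at chr19:34325014-34331982 (6969 bp). Those of Col3a1 at chr1:45364258-45370977 (6720 bp), Col1a2 at chr6:4455113-4461049 (5937 bp) and Thbs1 at chr2:117937635-117943013 (5379 bp) followed. Ctgf had one at chr10:24314004-24318419 (4416 bp), Col1a1 at chr11:94788503-94792441 (3939 bp) and Postn at chr3:54161659-54164366 (2708 bp). By the authors' score or −log10 p, this region held the strongest peak of the window in all 12 libraries for Col1a1, Fn1, Postn, Cyr61 and Acta2, and in 11 for Col3a1 and Ctgf. Col1a2 (4 libraries) and Thbs1 (0 libraries) differed, with their strongest peak elsewhere in the window. In the 48 h wild-type library the strongest Thbs1 peak was chr2:117934405-117937507, 3103 bp wide, which had a peak in all other 11 libraries.

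Most of the other regions varied from library to library. Some did not: Col1a1 had 4 regions with a peak in all 12 libraries, Thbs1 3 and Col1a2 2. Of the 227 regions, 15 (6.61%, background 7.69% of all regions) had a peak in all 12 libraries, and 132 (58.1%, background 47.0%) had one in a single library. A peak in all 7 wild-type libraries was found in 19 (8.37%, background 9.61%). Of the 132, 52 (39.4%) were found only in the H34 line, against 19.3% of the single-library regions of the genome. Among them were 33 regions of the Fn1 window and 14 of Col3a1. The H1 line alone had 27 of the 132 (20.5%, against 27.1% of the single-library regions of the genome). Of these, 12 were in the Acta2 window and 8 in that of Cyr61. At 12 h there were 14 (10.6%, against 6.20% in the genome), of which 7 were in the Col1a1 window.

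**Figure D1:**
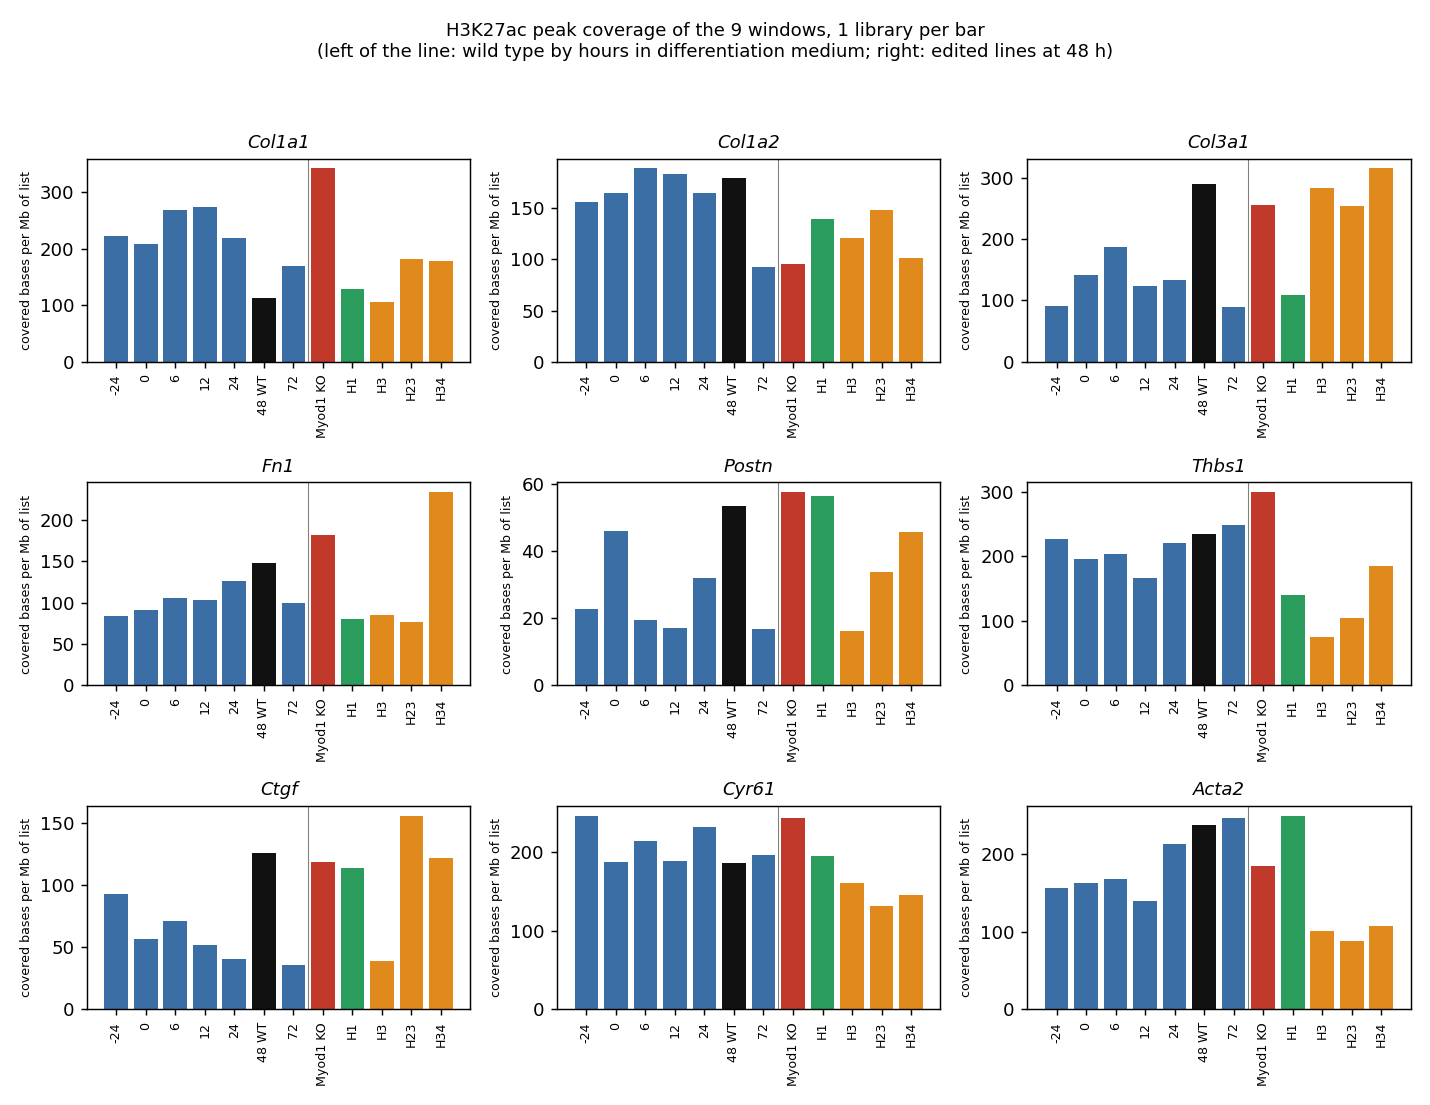
Bars give the list share (covered bases in the window per Mb of bases covered in the library's list) of each window in each of the 12 libraries, 1 library per bar, with the wild-type libraries by hours in differentiation medium left of the line and the edited lines at 48 h right of it. Ctgf was lowest at 72 h (35.6), Col1a1 was highest in the Myod1 knockout (341.8), and Acta2 stood at 87.7 to 107.7 in the 3 lines without H3.

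The time course asks how the matrix and actin loci were marked as myoblasts left the cell cycle and fused. Summed over the 9 windows, covered bases made up 0.130% of the list before the switch (-24 h), 0.125% at the switch, then 0.142% (6 h), 0.125% (12 h), 0.138% (24 h), 0.157% (48 h) and 0.119% (72 h). The sum varied less than the single windows did. Between -24 h and 72 h, 1 of the 8 windows with enough bases, Ctgf, was 2-fold lower (background 21.0% of tiles lower) and 0 were 2-fold higher (background 14.6%). The median ratio was 0.888 in these windows and 0.931 in the tiles, so as a group they lay near the genome.

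All 3 collagen windows had their fewest covered bases at 72 h, as did Postn, Ctgf and Cyr61, in a list of 24.9 Mb. Values over time are given for -24, 0, 6, 12, 24, 48 and 72 h in this order. Col1a1 had 5950, 7248, 9380, 11327, 5380, 5123 and 4197 covered bases, and list shares of 222.0, 207.6, 268.0, 274.1, 219.2, 112.8 and 168.7. Col1a1 was thus highest at 12 h in bases and in share, with its lowest values in the last pair of libraries. Col1a2, the partner chain of type I collagen, had 4189, 5763, 6615, 7579, 4052, 8161 and 2307 covered bases. Its list share lay between 156.3 and 189.0 at every time up to 48 h and was 92.7 at 72 h, when the window held 5 peaks against 10 at -24 h. Of the 10 Col1a2 peaks at -24 h, 4 had a peak at 72 h, where 42.7% of all -24 h peaks had none. Col3a1, which encodes type III collagen, had 2424, 4953, 6559, 5076, 3254, 13156 and 2202 covered bases. The 48 h value is the highest and the 72 h value the lowest, and without the 48 h library the highest was at 6 h. The Col3a1 list share was 88.5 at 72 h, close to 90.4 at -24 h, and reached 289.7 at 48 h.

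Among the glycoproteins that bind collagens and cells, Fn1 and Thbs1 varied less than 2-fold in list share. Fn1 had 2246, 3185, 3672, 4252, 3094, 6705 and 2460 covered bases, and a list share of 83.8 (-24 h) to 147.6 (48 h). Outside its widest region Fn1 had 0 to 2 peaks in each wild-type library, so nearly all covered bases of this 105 kb window lay in 1 place. Thbs1, which binds matrix and activates latent TGF-beta, had 6065, 6852, 7123, 6895, 5404, 10638 and 6193 covered bases. Its list share was lowest at 12 h (166.9) and highest at 72 h (248.9), a range of 1.49-fold. Postn had 611, 1603, 683, 711, 782, 2416 and 415 covered bases. It was 2-fold lower at 6 h than at 0 h, with list shares of 19.5 and 45.9, the only 1 of 9 windows past the fold in that step (background 2.9% of tiles lower and 2.71% higher). The other 8 windows had a higher list share at 6 h than at 0 h, with a median ratio over the 9 of 1.14 against 0.995 in the tiles.

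Ctgf and Cyr61 encode related matricellular proteins, both known targets of YAP with TEAD factors, and their windows differed over time. Ctgf had 2486, 1967, 2499, 2138, 991, 5694 and 885 covered bases, and list shares of 92.8, 56.3, 71.4, 51.7, 40.4, 125.4 and 35.6. The shares of 24 h and 72 h were 0.435 and 0.383 of that before the switch. Ctgf was the single window past 2-fold at 24 h too, of 8 tested (background 15.1% of tiles lower, 10.5% higher). Of its 7 peaks at -24 h, 3 had a peak at 24 h and 3 at 72 h. Over all -24 h peaks 35.6% had none at 24 h and 42.7% none at 72 h. At 72 h no Ctgf peak lay outside the widest region. The 48 h wild-type library did not follow this order and had the highest Ctgf share of the time course. Cyr61 had 6575, 6522, 7477, 7791, 5673, 8455 and 4875 covered bases. Its list share ran from 186.2 to 245.3, a range of 1.32-fold, the smallest of the 9 windows.

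Acta2 had its highest shares late. It had 4197, 5667, 5867, 5790, 5216, 10786 and 6131 covered bases, and list shares of 156.6, 162.3, 167.6, 140.1, 212.5, 237.5 and 246.4. The 3 last libraries were the 3 highest, though the ratio of 72 h to -24 h stayed under 2-fold. Of the 7 Acta2 peaks at -24 h, 7 had a peak at 24 h and 7 at 72 h (background without one 35.6% and 42.7%). Of the 10 peaks at 72 h, 4 had none at -24 h (background 37.4%).

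Counted as peaks, 29 of the 76 window peaks at -24 h had none at 72 h (38.2%, 95% Wilson interval 28.1 to 49.4, background 42.7%), and their median width was 178 bp where that of the peaks with a counterpart was 407 bp. In the other direction 14 of 62 peaks at 72 h had none at -24 h (22.6%, interval 14.0 to 34.4, background 37.4%). The upper end of that interval is below the background, but not when peaks within 1 kb were merged (24.0%, interval 11.5 to 43.4, background 33.3%). Between -24 h and 24 h, 19 of 76 earlier peaks had no later one (25.0%, interval 16.6 to 35.8, background 35.6%) and 22 of 81 later peaks no earlier one (27.2%, interval 18.7 to 37.7, background 35.4%). Intervals cover counting error only, and neighbouring peaks are not independent. At 6 h, 39 of 94 peaks had none at 0 h (41.5%, interval 32.1 to 51.6, background 24.2%), and 15 of 73 peaks at 0 h had none at 6 h (20.5%, interval 12.9 to 31.2, background 26.6%). Of the 39, 9 were in the Col1a1 window, 9 in that of Col3a1 and 7 in that of Col1a2. The median width was 153 bp for the 39 and 654 bp for the other peaks at 6 h. The shares between 0 h and 6 h, and between -24 h and 24 h, were not recomputed with merged peaks or other settings. A peak at -24 and 0 h with none at 24, 48 and 72 h was found in 3 of 227 regions (1.32%, background 1.69%): chr11:94803862-94804169 in the Col1a1 window (308 bp), chr6:4454297-4454960 in the Col1a2 window (664 bp) and chr3:145295466-145295946 in the Cyr61 window (481 bp). The reverse pattern was found in 0 regions (background 0.549%).

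**Figure D2:**
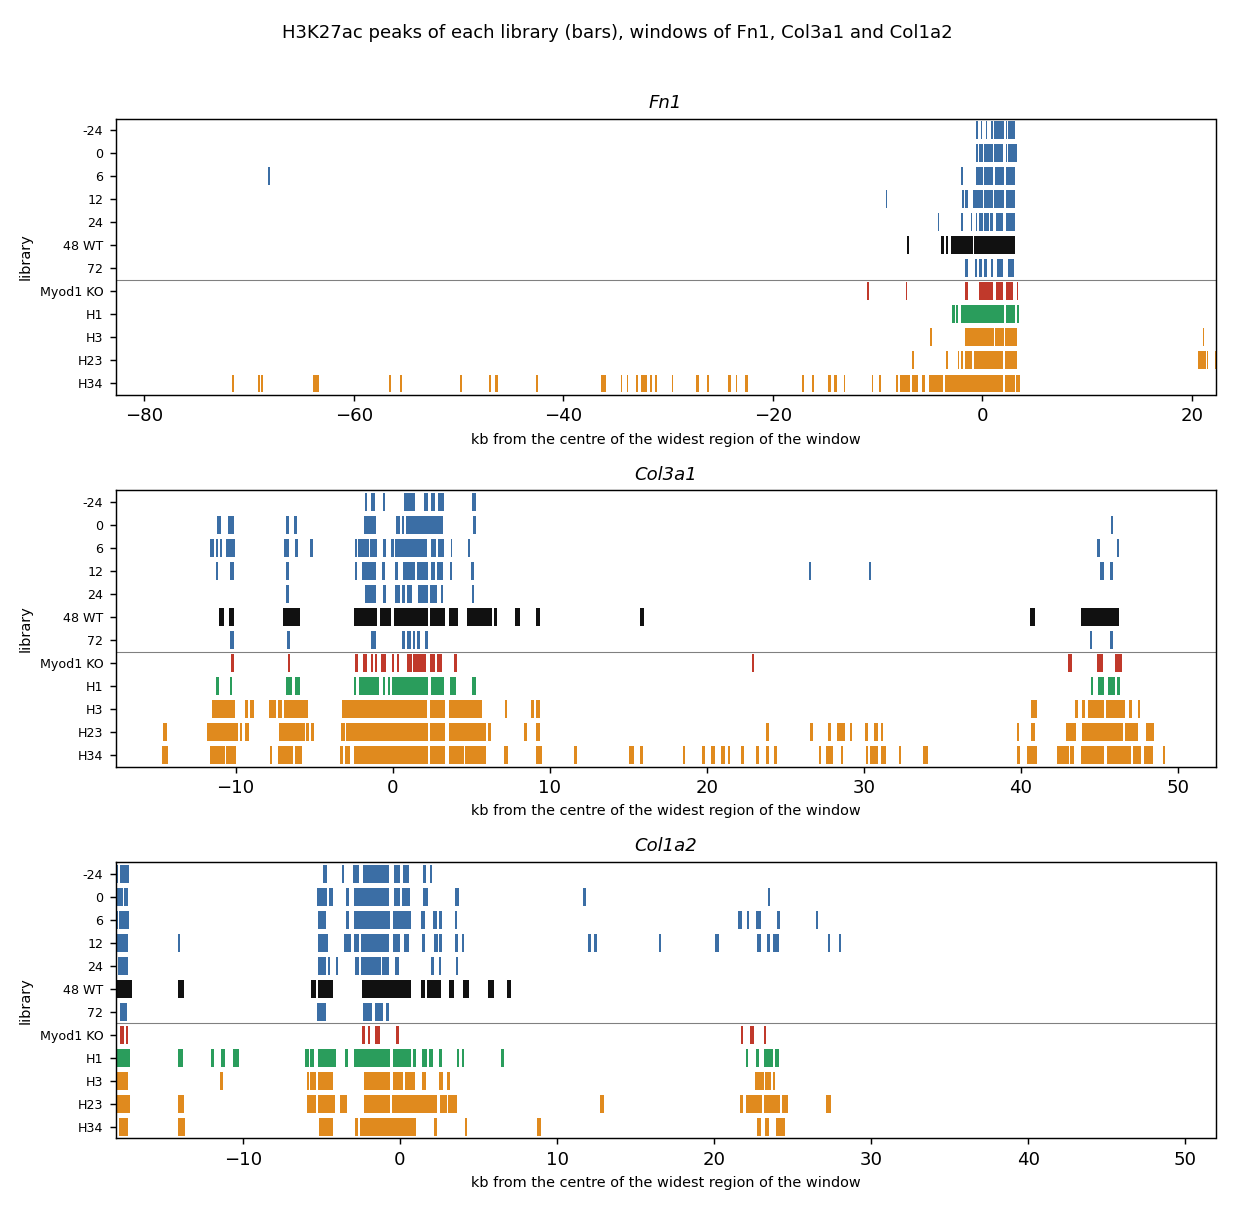
Bars mark the H3K27ac peaks of each library (rows) along the Fn1, Col3a1 and Col1a2 windows, in kb from the centre of the widest region. The H34 row of Fn1 has 36 peaks outside the widest region where the other rows have 0 to 4, and the Col1a2 row of the Myod1 knockout has short peaks only.

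The Myod1 knockout asks what the loci look like at 48 h without the master regulator of the myoblast lineage. Its list was the smallest of all, and it had the highest total for these windows, 0.178% of its covered bases against 0.157% in wild type. Col1a1 was 2-fold higher, 1 of 9 windows (background 11.5% of tiles higher), and 0 were 2-fold lower (background 32.3%). The median ratio was 1.08 in the windows and 0.854 in the tiles. In wild type at 48 h the median window had 14.2% of its bases covered, and the median tile with a peak 3.09%. Tiles of like coverage were not compared, so these medians do not set the windows apart from other densely covered loci. In covered bases not divided by the list total, the split turned to 6 windows lower and 0 higher, as 67.6% of tiles were lower and 1.14% higher. Against the 72 h library 4 were higher and 0 lower (19.3% and 22.9% of tiles).

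Col1a1 had 6259 covered bases in the knockout and 5123 in wild type, and list shares of 341.8 and 112.8, a ratio of 3.03. Each of its 10 wild-type peaks had a counterpart in the knockout, which held for no other window. Over all wild-type peaks 57.5% had none. In covered bases alone the ratio was 1.22, so the call rests on dividing by a list that was 0.403 of the wild-type length. Against the 72 h wild-type library, a reference chosen after the data were seen, the ratio was 2.03. Chromosome 11 as a whole took 1.25 times its wild-type share of the list, and as a share of that chromosome, a scale also chosen then, the Col1a1 ratio was 2.43.

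Col1a2 lay on the other side of wild type. It had 1745 covered bases in the knockout against 8161 in wild type, in peaks of at most 291 bp within its widest region, where wild type had one of 3090 bp. Of its 11 wild-type peaks, 9 had no peak in the knockout (background 57.5% of all wild-type peaks). The widest of these was chr6:4452872-4453838 (967 bp), which had a peak in all other 10 libraries. The list share was 95.3 in the knockout and 179.7 in wild type, a ratio of 0.530 that is just inside the 2-fold limit. Chromosome 6 as a whole took 0.692 of its wild-type share of the list. What part of the Col1a2 ratio this accounts for was not tested. Col3a1 had 4683 bases against 13156, with list shares of 255.8 and 289.7. Its widest wild-type peak without a knockout peak was chr1:45372372-45373933 (1562 bp).

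In the knockout Acta2 was marked in its widest region only. The window had 3390 covered bases in the knockout, all in that region, against 10786 in wild type, and the widest peak there was 739 bp against 4913 bp. Of the 11 Acta2 wild-type peaks, 9 had no knockout peak (background 57.5% of all wild-type peaks). The widest were chr19:34336547-34337791 (1245 bp) and chr19:34339782-34340934 (1153 bp), and both had a peak in all other 10 libraries. As the whole knockout list was short, the list share was 185.2 against 237.5.

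The glycoprotein windows also held wild-type peaks without a knockout peak, to be set beside the 57.5% of all wild-type peaks. In the Thbs1 window 7 of 13 wild-type peaks had no knockout peak, the widest of 370 bp at chr2:117942249-117942618, in that of Ctgf 5 of 7 (574 bp at chr10:24317073-24317646) and in that of Cyr61 4 of 7 (739 bp at chr3:145328703-145329441). In the Fn1 window 3 of 5 had none (313 bp at chr1:71693748-71694060), and in that of Postn 1 of 2 (254 bp at chr3:54164474-54164727). Over the 9 windows 45 of 81 wild-type peaks had no knockout peak (55.6%, interval 44.7 to 65.9), near the background of 57.5%. Their median width was 327 bp, that of the rest was 1264 bp, and they held 26.9% of the wild-type bases. In the other direction 15 of 81 knockout peaks had none in wild type (18.5%, interval 11.6 to 28.3, background 25.5%).

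**Figure D3:**
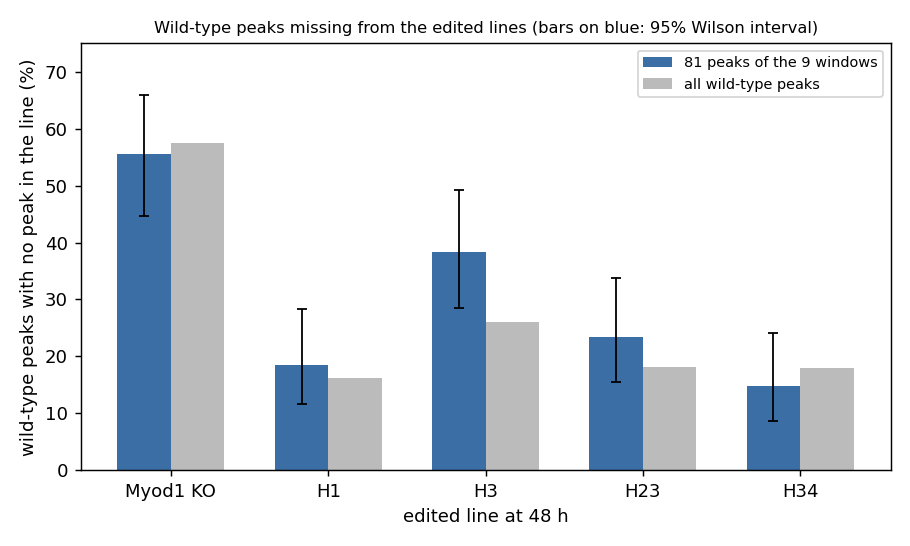
Bars give the percentage of 48 h wild-type peaks with no overlapping peak in each edited line, for the 81 peaks of the 9 windows (with 95% Wilson intervals) and for all wild-type peaks. The windows were at 38.3% against 26.0% in the H3 line, and at 55.6% against 57.5% in the Myod1 knockout.

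The hotspot deletions ask whether removing H1, or H3 alone and together with H2 or H4, went with other marks at these loci. All 5 edited lines were set against the same wild-type library, so its own deviations enter each comparison. The H3 line stood lowest of the 12 libraries, with 0.0987% of its covered bases in the windows. Of 9 windows, 4 were 2-fold lower in the H3 line (background 17.5% of tiles) and 0 were 2-fold higher (background 14.5%). None had a ratio above 1, and the median was 0.580 against 0.989 in the tiles. In the H23 line 2 were lower (background 14.0%) and 0 higher (background 21.6%), with a median of 0.701 against 0.999. In the H34 line 1 was lower (background 12.5%) and 0 higher (background 18.7%), with a median of 0.858 against 1.01. In the H1 line 1 was lower (background 12.2%) and 0 higher (background 15.5%), with a median of 0.909 against 0.967. As for the knockout, tiles as densely covered as the windows were not compared. What part of these lower medians the dense wild-type coverage and the longer lists account for was not tested.

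These directions depend on the scale and on the reference. In covered bases not divided by the list total, the H23 line had 2 windows higher, Col1a1 at 2.90 and Ctgf at 2.23, and 0 lower (44.3% of tiles higher, 5.98% lower). The H34 line likewise had 2 higher, Col1a1 and Fn1 at 2.54 each, and 0 lower (37.2% and 6.23% of tiles). The H3 line kept 3 lower and 0 higher (13.3% of tiles lower, 23.4% higher), and the H1 line had none past 2-fold in either direction (31.6% of tiles higher, 5.67% lower). Against the 72 h library the H3 line had 1 higher, Col3a1 at 3.19, and 2 lower, Thbs1 and Acta2. The H23 line then had 3 higher, Col3a1 at 2.87, Postn at 2.02 and Ctgf at 4.37, and 2 lower, Thbs1 and Acta2. The H34 line had 4 higher, Col3a1, Fn1, Postn and Ctgf, and 1 lower, Acta2. The H1 line had 2 higher, Postn and Ctgf, and 0 lower. Of the tiles, 33.2% were higher and 12.7% lower than at 72 h in the H3 line, and 39.5% and 13.7% in the H23 line. These shares were 37.8% and 11.8% in the H34 line, and 33.8% and 9.68% in the H1 line.

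Acta2 was the window lower in all 3 lines without H3. It had 10786 covered bases in 11 peaks in wild type, 5915 in 5 peaks in the H3 line, 7144 in 7 in the H23 line, 7860 in 12 in the H34 line and 17571 in 24 in the H1 line. The list shares were 237.5 in wild type, 101.2, 87.7 and 107.7 in the H3, H23 and H34 lines, and 249.0 in the H1 line. Each line without H3 thus lay below wild type and the H1 line, at ratios of 0.426, 0.369 and 0.453, while the H1 line was at 1.05. Against the 72 h wild-type library the ratios of list share were 0.411, 0.356 and 0.437, and 1.01 for the H1 line. In covered bases the 72 h library had 6131, above the H3 line but below the H23 and H34 lines. Apart from 48 h, wild type had 4197 to 6131 covered bases. Against wild type at 48 h the ratios in covered bases not divided by the list were 0.548, 0.662 and 0.729. None was past 2-fold, since the 3 lists were 1.29 to 1.79 times as long as that of wild type. With 10 kb taken off each end of the window the H3 line had a ratio of 0.631, while the H23 and H34 lines stayed past 2-fold.

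In the lines without H3 the Acta2 list share was below wild type both inside and outside its widest region. Inside it the list share was 135.6 in wild type, 89.5 in the H3 line, 66.2 in the H23 line and 67.6 in the H34 line. The ratios to wild type were 0.660, 0.488 and 0.499, and the H1 line was at 98.6, a ratio of 0.727. Wild type already covered 88.4% of this region, which was merged from the same peaks. In these longer lists a lower share inside it was thus fixed in advance, so it does not set the lines without H3 apart. The covered bases there were 6160 in wild type and 5232, 5392 and 4936 in the 3 lines. Outside it the ratios of list share were 0.115, 0.211 and 0.393. There wild type had 9 peaks covering 4626 bases, the H3 line 3 covering 683, the H23 line 5 covering 1752, the H34 line 8 covering 2924 and the H1 line 23 covering 10614. Among the 81 wild-type peaks of the 9 windows, 3 were shared with the H1 line but with no line lacking H3 (3.70%, background 4.74%), and all 3 were in the Acta2 window. They lay at chr19:34293221-34293827, chr19:34319541-34319841 and chr19:34333287-34333477. The first was among the strongest 33.5% of the wild-type list by −log10 p, and the others were weak, ranked at 90.7% and 96.2% from the top. None of the 3 had a peak at any other time of the time course or in the Myod1 knockout.

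**Figure D4:**
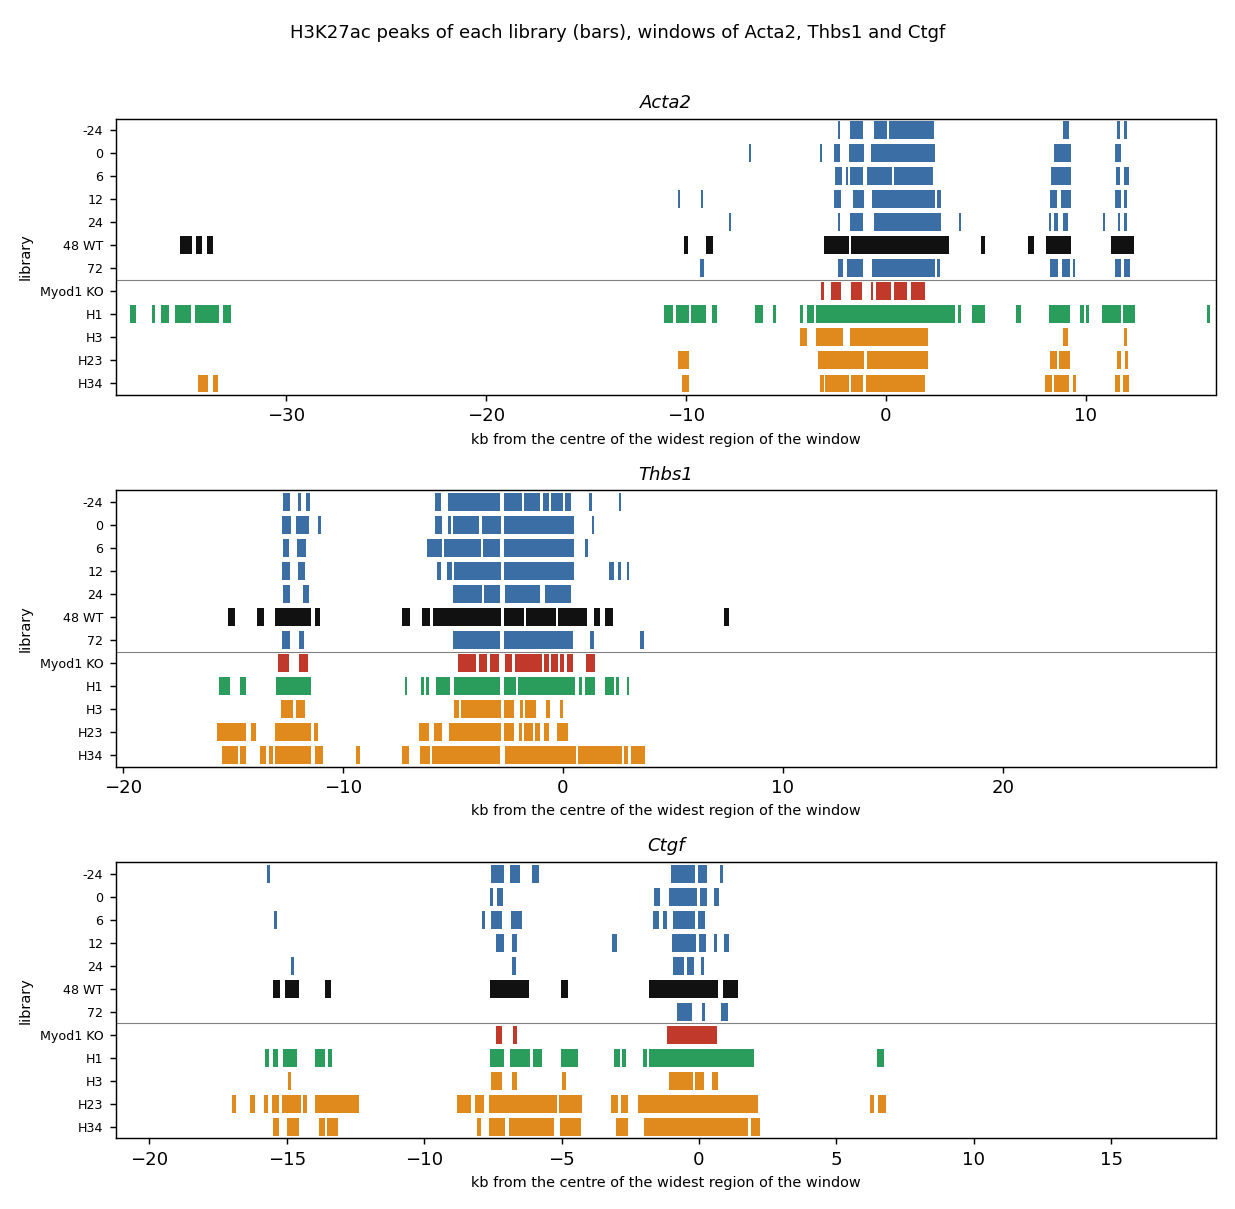
Bars mark the H3K27ac peaks of each library (rows) along the Acta2, Thbs1 and Ctgf windows, in kb from the centre of the widest region. The central Acta2 region has a peak in all 12 rows, the H1 row has 23 peaks outside it, and the Myod1 knockout has 0.

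Thbs1 was lower in the H3 and H23 lines. It had 10638 covered bases in 13 peaks in wild type, 4432 in 9 in the H3 line, 8512 in 13 in the H23 line, 13483 in 14 in the H34 line and 9920 in 15 in the H1 line. The list shares were 234.3 in wild type, 75.9 in the H3 line, 104.5 in the H23 line, 184.7 in the H34 line and 140.6 in the H1 line. All 4 lines lay below wild type, the H3 line lowest at a ratio of 0.324 and the H23 line at 0.446. The H3 line kept its call in covered bases alone (0.417) and against 72 h (0.305), and the H23 line lost it in covered bases alone (0.800). In the H3 line 8 of the 13 wild-type Thbs1 peaks had no counterpart (background 26.0%). In the H23 line 5 had none (18.2%), in the H1 line 3 (16.2%) and in the H34 line 1 (18.0%).

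Ctgf was low in the H3 line alone. It had 5694 covered bases in wild type, 2256 in the H3 line, 12675 in the H23 line, 8890 in the H34 line and 8043 in the H1 line. The list shares were 125.4, 38.6, 155.6, 121.8 and 114.0 in that order. The ratio was 0.308 in the H3 line, while the double deletions, which also lack H3, were at 1.24 (H23) and 0.971 (H34). All 7 wild-type Ctgf peaks had a counterpart in the H1, H23 and H34 lines, and 4 of 7 had one in the H3 line. Over all wild-type peaks 16.2%, 18.2%, 18.0% and 26.0% had none in the H1, H23, H34 and H3 lines. Against 72 h, when wild-type Ctgf was itself low, the ratio of the H3 line was 1.09 and the call was lost.

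Postn was likewise lowest in the H3 line. It had 2416 covered bases in wild type, 951 in the H3 line, 2741 in the H23 line, 3330 in the H34 line and 3973 in the H1 line, with list shares of 53.2, 16.3, 33.6, 45.6 and 56.3. The ratio of the H3 line was 0.306, and against 72 h it could not be called, with under 1000 bases in both. Postn and Ctgf were also the pair of windows most alike in list share over the 12 libraries, with a Spearman rho of 0.71, given as a description since the libraries share a cell line and the shares share a denominator. Cyr61, by contrast, had list shares of 186.2 in wild type, 160.6 in the H3 line, 130.5 in the H23 line, 145.0 in the H34 line and 195.1 in the H1 line. No Cyr61 value passed 2-fold. Of its 7 wild-type peaks 1 had no counterpart in the H3 line (background 26.0%) and 0 in the other 3 hotspot lines (background 16.2% to 18.2%).

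Col1a1 and Col3a1 had more covered bases in both double deletions than in wild type, as did Postn, Ctgf and Cyr61. The whole lists were 1.79 (H23) and 1.61 (H34) times as long as that of wild type. In covered bases Col1a1 was at 2.90 and 2.54 times wild type, and Col3a1 at 1.58 and 1.75 times. Col1a1 had 5123 covered bases in wild type, 9053 in the H1 line, 6160 in the H3 line, 14836 in the H23 line and 13004 in the H34 line. Its list shares were 112.8, 128.3, 105.4, 182.1 and 178.2, so the share passed 2-fold in no hotspot line. Of the wild-type peaks, 9 of 10 in the Col1a1 window and 6 of 7 in that of Cyr61 had a peak in all 4 hotspot lines (background 62.4%). Col1a2 had list shares of 179.7 in wild type, 139.4 in the H1 line, 120.6 in the H3 line, 148.0 in the H23 line and 101.3 in the H34 line, all 4 lines being lower and none past 2-fold.

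Col3a1 went from 13156 covered bases in wild type to 7716 in the H1 line, 16509 in the H3 line, 20729 in the H23 line and 22997 in the H34 line. The list shares were 289.7, 109.4, 282.5, 254.4 and 315.1. The H1 line was the only low one, at a ratio of 0.378. The ratio was 0.587 in covered bases alone and 1.24 against the 72 h library, in which Col3a1 was narrow, so the direction depends on the reference. Outside the widest Col3a1 region the H34 line had 39 peaks, the H23 line 25, the H3 line 17, the H1 line 10 and wild type 11.

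Fn1 had 6705 covered bases in 5 peaks in wild type, 5675 in 5 in the H1 line, 5001 in 5 in the H3 line, 6241 in 10 in the H23 line and 17014 in 39 in the H34 line. The H34 line stood apart from the other 11 libraries. Outside the widest region it had 36 Fn1 peaks covering 10159 bases, where the others had 0 to 4 peaks. These peaks were narrow and weak for their list, with a median width of 187.5 bp and a median −log10 p of 5.57 against 8.18 for the whole H34 list, and 34 of 36 had a q under 0.001. The list share of Fn1 was 233.1 in the H34 line, 147.6 in wild type, 80.4 in the H1 line, 85.6 in the H3 line and 76.6 in the H23 line.

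**Figure D5:**
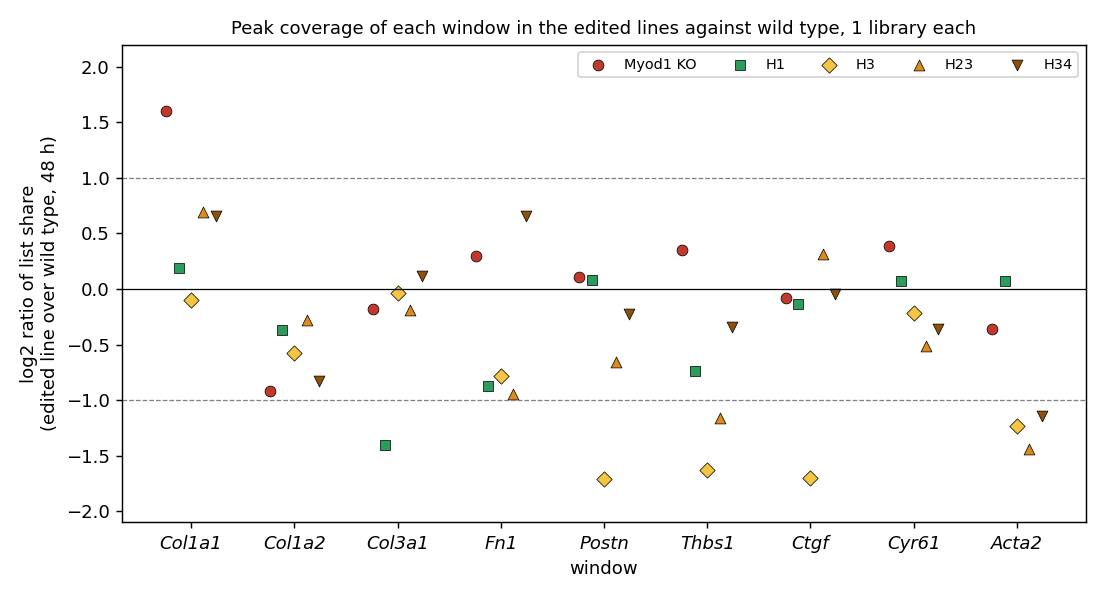
Points give the log2 ratio of the list share of each window in an edited line over wild type at 48 h, 1 library each, with dashed lines at 2-fold. The H3 line is below 0 in all 9 windows, Acta2 is below the lower line in the 3 lines without H3, and Col1a1 in the Myod1 knockout is the single point above the upper line.

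By peaks, 31 of 81 wild-type peaks in the windows had no counterpart in the H3 line (38.3%, interval 28.4 to 49.2, background 26.0%). In the H23 line 19 had none (23.5%, interval 15.6 to 33.8, background 18.2%), in the H1 line 15 (18.5%, interval 11.6 to 28.3, background 16.2%) and in the H34 line 12 (14.8%, interval 8.68 to 24.1, background 18.0%). The interval of the H3 line lay above its background, but not with windows trimmed by 10 kb (34.5%, interval 23.6 to 47.3, background 26.0%) or peaks within 1 kb merged (29.7%, interval 17.5 to 45.8, background 24.6%). With both lists cut to an equal number of their strongest peaks, the interval of the H23 line lay above its background too (37.0%, interval 27.3 to 47.9, background 26.7%). The 31 peaks had a median of 284 bp where those with a counterpart had 920.5 bp. Of these 31, Thbs1 had 8 and Acta2 7. Here too the intervals cover counting error only, and neighbouring peaks are not independent. In all 4 lines 45 of the 81 had a counterpart (55.6%, background 62.4%), and in all other 11 libraries 23 had one (28.4%, background 27.3%), 6 of them in the Col1a1 window.

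In the reverse direction 24 of 84 peaks of the H3 line had none in wild type (28.6%, interval 20.0 to 39.0, background 48.6%), 64 of 139 in the H1 line (46.0%, background 55.6%), 59 of 124 in the H23 line (47.6%, background 59.4%) and 96 of 162 in the H34 line (59.3%, background 56.2%). The lists of the hotspot lines reach down to a −log10 p of about 3 and that of wild type to 4.13, and what part of these counts this accounts for was not tested.

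Neighbouring genes may lie in some windows. By the gene lengths and gaps of RefSeq on GRCm38.p6, used for neighbours only, Sgca may share the Col1a1 window, Col5a2 that of Col3a1, Atic that of Fn1, Fsip1 that of Thbs1, and Stambpl1 and Fas that of Acta2. Which gene a peak belongs to was not tested.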

How the data were processed

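Peak lists of 12 libraries were used, 1 per condition, of 13 samples described. Per the submitters' processing notes, peaks were called with MACS2 2.1.0 and mm9 was the build. Aligner, control and cutoffs are not given in the sources used here. The deposited time course lists hold a score of unstated unit, and the lists at 48 h hold the authors' score, fold enrichment, −log10 p-value and −log10 q-value. These were used only to rank or filter peaks within a list. The authors' fold enrichment was not compared between libraries.

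The 9 windows and all lists were chosen with earlier results of these data known. Covered bases, list shares, 2-fold calls and overlaps of 1 base were computed with Python 3.11.15, numpy 2.4.6 and pandas 2.3.3, and figures drawn with matplotlib 3.10.9. Shares carry 95% Wilson intervals. On 20000 simulated peaks with 3000 removed, the overlap step found 3000 missing and 0 wrongly. Described were all windows, the widest region, the widest region of each loss or gain pattern, the widest wild-type peak without a knockout peak per window, and the closest pair of windows. Alternatives were other scales, filters, folds, overlaps and window ends. A list of further matrix genes was not analysed here, for want of an mm9 annotation.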

Additional observations from a re-analysis of the deposited data

How the results depend on the processing

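Of 107 alternative values over 22 results, 82 were a count within 1.5 times the first or a share within its interval, and 25 moved. A count within 1.5 times does not say that the same windows were called. The H23 line had 2 windows past 2-fold with and without division by the list total, but Thbs1 and Acta2 lower in the one and Col1a1 and Ctgf higher in the other. The H3 line had 4 against wild type and 3 against 72 h, where Ctgf was no longer past 2-fold, Postn could not be called, and Col3a1 was higher. The cause of the moved values was not tested.

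With a 1.5-fold limit the windows past it numbered 3 at 72 h (54.6% of tiles) and 2 at 24 h (44.4%) against -24 h, 2 in the Myod1 knockout (63.7%), 3 in the H1 line (47.6%), 5 in the H23 line (56.0%) and 4 in the H34 line (51.2%), in either direction. With covered bases not divided by the list total they numbered 6 in the knockout (Col1a2, Col3a1, Fn1, Postn, Ctgf and Acta2, all lower), 0 in the H1 line and 2 in the H34 line (Col1a1 and Fn1, higher). A q under 0.001 gave 2 in the knockout, as did windows trimmed by 10 kb, with Col1a2 lower beside Col1a1 higher. The same number of strongest peaks per list gave 2 in the H34 line, Col1a2 and Acta2, both lower. With the 72 h library as the reference, chosen after the data were seen, they numbered 4 in the knockout (all higher) and 2 in the H1 line (both higher). They numbered 5 in the H23 line (3 higher) and 5 in the H34 line (4 higher). The tiles past 2-fold in either direction were 42.2%, 43.4%, 53.2% and 49.6% in that order. Shares of the own chromosome, also chosen after the data were seen, moved no count.

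With the same number of strongest peaks, wild-type peaks without a counterpart came to 34.6% in the H1 line (29.3% of all wild-type peaks), 37.0% in the H23 line (26.7%) and 30.9% in the H34 line (29.2%), beside 44.4% in the H3 line (33.1%). Merging peaks within 1 kb put the -24 h peaks without a 72 h peak at 28.0% (33.9% of all). With trimmed windows the windows held 0.0671% (0 h), 0.0862% (6 h), 0.0859% (12 h), 0.0814% (48 h) and 0.0679% (72 h) of the peaks of the wild-type lists. No paired analysis was possible because each condition had 1 library, and no library could be left out for the same reason. Depth was unknown, so a missing peak is one not called at that library's cutoff.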
